A study of Mus musculus with 10 samples.

Results

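Respiratory complexes III and IV were followed through 32 genes in visceral fat, chosen as a fixed list of names and matched to the gene column of both deposited tables. All 32 were found, among 16667 genes in the table of normalized counts and 29242 in the table of TPM, which expresses each gene as a length-corrected share of all transcripts. The nucleus encodes 28 of them and the mitochondrial genome 4 (mt-Cytb, mt-Co1, mt-Co2 and mt-Co3). The list holds 10 complex III subunits, cytochrome c (Cycs), 13 complex IV subunits, the supercomplex factor Cox7a2l and 7 complex IV assembly genes.

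The RNA came from 10 wild-type mice of the C57BL/6 strain aged 10 weeks. The control group had 5 mice after sham surgery. The other group had 5 mice with orthotopic KPC tumours, that is, tumours of a mouse model of pancreatic ductal adenocarcinoma placed in the pancreas. No other allele or agent is labelled in either group, and the labels state neither the sex of the mice nor how many KPC lines were used. In RNA from whole tissue, fewer cells of a type and less RNA per cell cannot be told apart.

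Complex III, the cytochrome bc1 complex, takes electrons from ubiquinol and passes them to cytochrome c, a small soluble carrier. Complex IV, cytochrome c oxidase, takes them from cytochrome c and reduces oxygen to water, and both complexes help to build the proton gradient that drives ATP synthesis. Their redox centres sit in a few large subunits, some of them encoded by mitochondrial DNA, while many small nuclear-encoded subunits surround this core. The complexes therefore need transcripts from both genomes. White fat cells use their mitochondria to supply intermediates for lipid synthesis as well as ATP, and brown and beige fat cells use the same chain to make heat.

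None of the 32 genes passed the test between tumour-bearing and sham mice. In the limma fit over all 14203 genes with a mean of at least 10 normalized counts, 0 of 32 had a Benjamini-Hochberg adjusted p under 0.05, against 0.0563% of all genes (8 genes; 0.0493% higher and 0.00704% lower). At an unadjusted p under 0.05, 2 of 32 stood out, Uqcrc1 (lower) and Cox7a2l (higher), against 13.5% of all genes (7.61% higher and 5.91% lower). For none did the normalized counts of all KPC mice lie beyond those of all sham mice, a separation that 4.03% of all genes showed (2.75% above and 1.28% below). A log2 difference (KPC minus sham) below 0 was found for 27 of 32 genes, against 53.1% of all genes. The median difference was -0.10 for the 28 nuclear genes, -0.18 for the 4 mitochondrially encoded genes and -0.02 for all genes tested. The nuclear median depended on scaling and on single mice. It was -0.19 on TPM rescaled to nuclear genes (where all genes had a median of -0.09) and -0.07 under quantile normalization. It was -0.15 without sham mouse 5 and -0.19 with KPC mouse 1 omitted as well. When either sham mouse 1 or KPC mouse 4 was omitted, it was -0.04. Sample titles open with a number, 1, 2 or 4. With that title number as a block, the nuclear median was -0.07. The mitochondrial median was -0.05 without KPC mouse 1, -0.10 without sham mouse 1, -0.04 with array weights and 0.03 under quantile normalization. The standard error of a single member's difference had a median of 0.13 and a range of 0.08 to 0.40. It is not the error of a median over genes, and these medians were not tested. Of the single members, only Uqcrc1 and Cox7a2l had a 95% interval that left out 0.

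**Figure D1:**
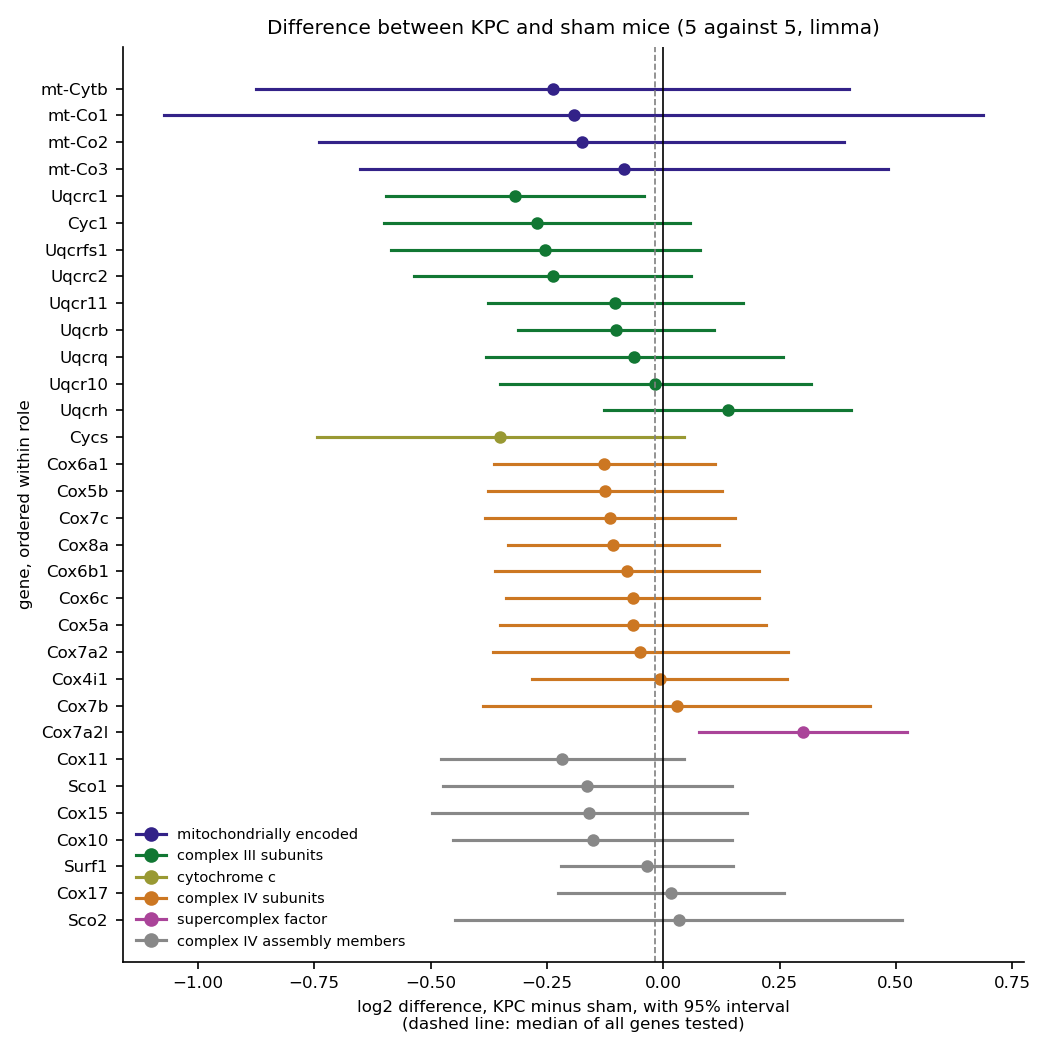
The horizontal axis gives the log2 difference, KPC minus sham, of log2(normalized count + 1) for each gene on the vertical axis, as a point with its 95% interval from the limma fit on 5 mice per group; colours mark roles and the dashed line marks the median of all genes tested. Only the intervals of Uqcrc1 (below 0) and Cox7a2l (above 0) leave out 0, and neither passed the adjusted threshold.

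Some libraries stood apart. KPC mouse 1 had 15.7% of its listed TPM in the 13 mitochondrially encoded genes, against 26.3% to 33.3% in the other 9 mice. Sham mouse 5 was the lowest sham mouse for 25 of the 28 nuclear genes and had the most skeletal muscle transcripts, with Acta1, the skeletal muscle actin, at 1270 TPM against 24.8 to 416 TPM in the other sham mice. All 8 adipocyte markers were detected in every mouse, which checks the fat label. Of these, 5 lay below 0 and 2 had an unadjusted limma p under 0.05, Pparg (91.3 ± 17.4 TPM, mean ± SD, n = 5, in sham mice and 61.2 ± 15.8 TPM in KPC mice) and Plin1 (132 ± 12.9 and 95.4 ± 26.3 TPM), while Adipoq, a fat cell hormone gene, was at 4290 ± 559 and 4264 ± 673 TPM. The adipocyte median difference was -0.14, and none passed the adjusted threshold. Of all genes, 53.1% lay below 0 and 5.91% were lower at an unadjusted limma p under 0.05. The 7 acinar markers summed to 11.5 to 32.4 TPM, nearly all of it Cela1 and highest in KPC mouse 1, with Prss2 and Cpa1 at or near 0. The 5 epithelial markers summed to 28.5 to 78.6 TPM, mostly Krt19, with Epcam listed at 0 in 9 of 10 mice. Macrophage markers lay higher in KPC mice, and none passed the adjusted threshold. Of these 8 markers, 7 had an unadjusted limma p under 0.05, against 13.5% of all genes (7.61% higher). Their summed level was 893 to 1445 TPM in sham mice and 1510 to 6080 TPM in KPC mice, with the highest sum in KPC mouse 1. All 6 neutrophil markers (median difference 1.51) and all 5 red cell markers (median 0.91) also lay above 0, with 2 and 0 at an unadjusted limma p under 0.05. Their sums were again highest in KPC mouse 1, at 289 TPM against 15.1 to 80.3 TPM in the other mice for neutrophils and at 40710 TPM against 4748 to 20272 TPM for red cells. The part of these libraries and markers in the differences reported here was not tested.

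Transcript levels differed widely between the genes. TPM is corrected for length, so levels are set side by side here, but any bias left by length was not tested. In KPC mouse 1 the shorter members lay higher against the sham mean than the longer ones, as given below. Over all 10 mice, the nuclear genes ran from Sco2 at 3.09 ± 0.562 TPM (mean ± SD, n = 10) to Cox4i1 at 1499 ± 118 TPM, and mt-Cytb to mt-Co1 lay between 15183 and 27807 TPM. Cox4i1, the largest nuclear subunit of complex IV, was above the next gene, Cox8a, in 10 of 10 mice. Cox8a (1292 TPM) and Cox6a1 (1280 TPM) could not be ordered, each being the higher in 5 of 10 mice. The 5 small complex III subunits (Uqcrb, Uqcrq, Uqcrh, Uqcr10 and Uqcr11) lay between 501 and 890 TPM. The core and redox subunits of the same complex were lower, with Uqcrc1 at 208, Uqcrfs1 at 198, Uqcrc2 at 164 and Cyc1 at 162 TPM. Neighbours among these were not separated beyond their spread: Uqcrc1 was above Uqcrfs1 in 8 of 10 mice and Uqcrc2 above Cyc1 in 7 of 10. Cytochrome c itself, Cycs, stood at 56.8 ± 12.7 TPM, next to the assembly gene Surf1 at 59.4 ± 4.41 TPM. The haem and copper assembly genes Cox15, Cox11, Cox10, Sco1 and Sco2 were the lowest, at 10.9, 10.7, 6.40, 6.01 and 3.09 TPM.

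**Figure D2:**
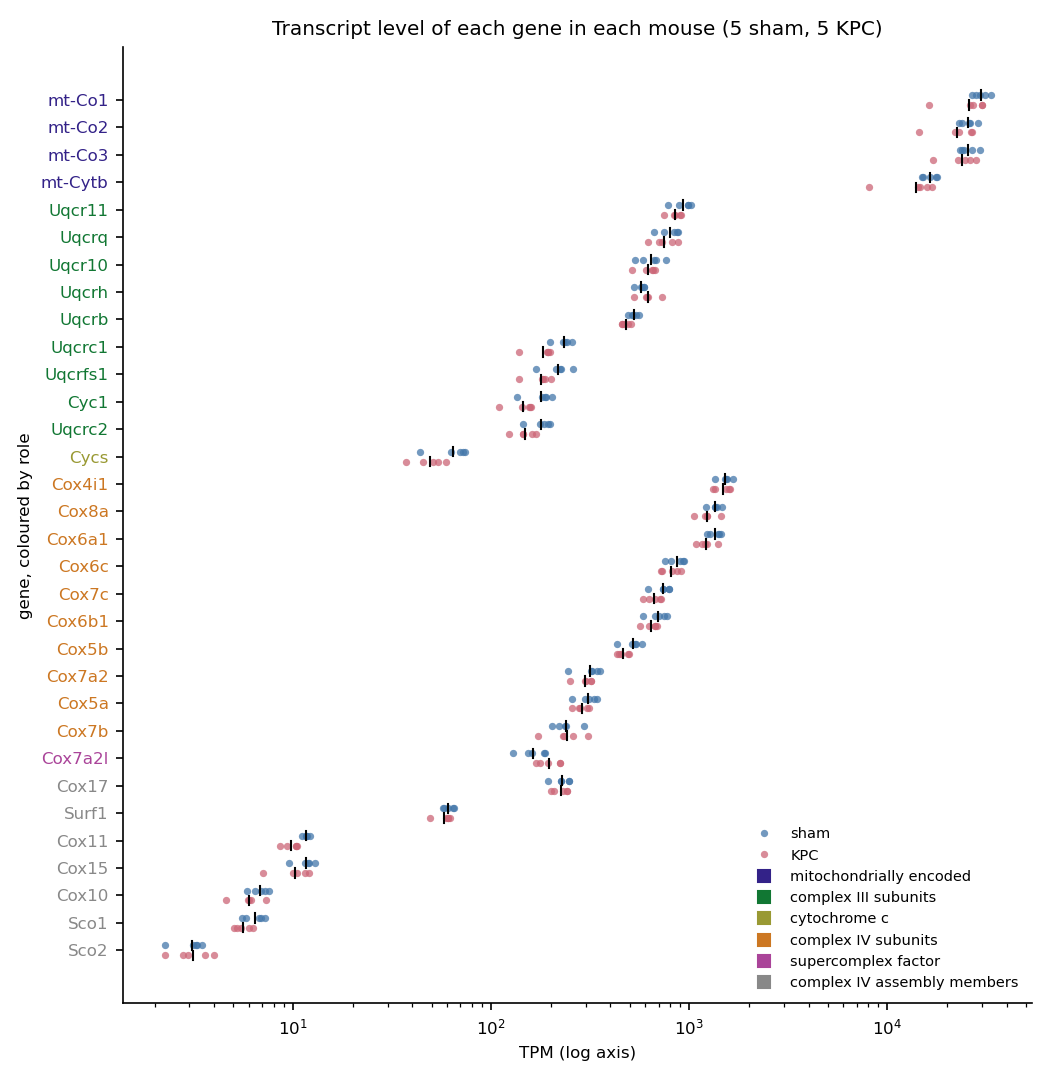
Each point is 1 mouse on a logarithmic TPM axis, with sham mice above and KPC mice below for each gene, black ticks at the group means and gene names coloured by role. The mitochondrially encoded genes lie furthest to the right, the nuclear subunits of complexes III and IV between 162 and 1499 TPM and the assembly genes other than Cox17 (226 TPM) at the left, and the groups overlap for every gene but Cox11, whose 5 KPC values lie below its sham values.

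The 4 mitochondrially encoded subunits showed no difference beyond the spread between mice, and in each of them KPC mouse 1 lay far below the rest. mt-Cytb encodes cytochrome b, the catalytic core of complex III, and stood at 17588, 17746, 15164, 16447 and 15013 TPM in sham mice 1 to 5. In KPC mice 1 to 5 it stood at 8091, 14670, 15929, 14356 and 16824 TPM. KPC mouse 1 lies far below all others and the other KPC mice fall within or just under the sham range. Its log2 difference was -0.24 ± 0.29 (limma estimate ± SE, 5 against 5, adjusted p = 0.748), and -0.07 without KPC mouse 1.

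mt-Co1, mt-Co2 and mt-Co3 encode the 3 large subunits of complex IV, of which the first holds the oxygen-reducing centre and the second receives electrons from cytochrome c. mt-Co1 was at 33236, 31128, 26817, 29294 and 27990 TPM in sham mice 1 to 5 and at 16232, 26949, 30056, 26204 and 30163 TPM in KPC mice 1 to 5. mt-Co2 was at 28663, 26189, 23040, 25950 and 23789 TPM in sham mice and 14486, 22990, 26588, 21982 and 26618 TPM in KPC mice. mt-Co3 was at 29253, 26811, 23217, 24315 and 23754 TPM in sham mice and 16916, 24755, 27965, 22772 and 26229 TPM in KPC mice. In each of them KPC mouse 1 is the lowest of 10 and the remaining 4 KPC mice lie within or just under the sham range. The log2 differences were -0.19 ± 0.40, -0.18 ± 0.26 and -0.08 ± 0.26, and without KPC mouse 1 they were -0.05, -0.04 and 0.02. Under quantile normalization mt-Co1 and mt-Co3 lay above 0, at 0.13 and 0.09.

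The mitochondrially encoded genes were not low in one proportion in KPC mouse 1. Its ratio of mt-Co3 to mt-Cytb TPM was 2.09, against 1.48 to 1.76 in the other 9 mice. The other 9 genes of the mitochondrial genome, which encode subunits of complex I and of ATP synthase, were low in the same mouse. All 9 lay below 0, against 53.1% of all genes, with a median log2 difference of -0.20, or -0.02 without KPC mouse 1. Of these 9, 0 had an unadjusted limma p under 0.05, against 13.5% of all genes. The highest of them, mt-Atp8, stood at 79176 ± 9759 TPM in sham mice and 70505 ± 19535 TPM in KPC mice. mt-Nd6, the only protein gene on the light strand, had the smallest p of the 9 at an adjusted 0.613.

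Set side by side, the transcripts of the nuclear and the mitochondrial genes did not run in parallel in every mouse. The 4 mitochondrially encoded genes took 11.6%, 11.0%, 9.56%, 10.3% and 9.76% of listed TPM in sham mice 1 to 5. In KPC mice 1 to 5 they took 6.07%, 9.67%, 10.9%, 9.24% and 10.7%. The 28 nuclear genes took 1.45%, 1.44%, 1.35%, 1.43% and 1.19% in sham and 1.30%, 1.33%, 1.24%, 1.18% and 1.36% in KPC mice. Sham mouse 5 and KPC mouse 4 are the lowest by this share. Their sample titles both open with the number 4, as does that of KPC mouse 5 and of no other mouse. The denominator of this share includes the mitochondrial transcripts, which took a smaller share in KPC mouse 1. As a share of the TPM of nuclear genes alone, the 28 genes took 2.17%, 2.09%, 1.83%, 2.03% and 1.64% in sham mice 1 to 5 and 1.55%, 1.84%, 1.82%, 1.60% and 1.93% in KPC mice 1 to 5. By that share KPC mouse 1 is the lowest of 10, below every sham mouse. In TPM it was the lowest of 10 for 13 of the 28 nuclear genes, against 8 for KPC mouse 4 and 3 for sham mouse 5. In normalized counts, the scale of the test, this order is reversed. There KPC mouse 4 was the lowest of 10 for more of the nuclear genes than KPC mouse 1. The ratio of mitochondrial to nuclear summed TPM was 7.09 to 8.18 in sham mice, 4.65 in KPC mouse 1 and 7.28 to 8.78 in the other KPC mice.

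**Figure D3:**
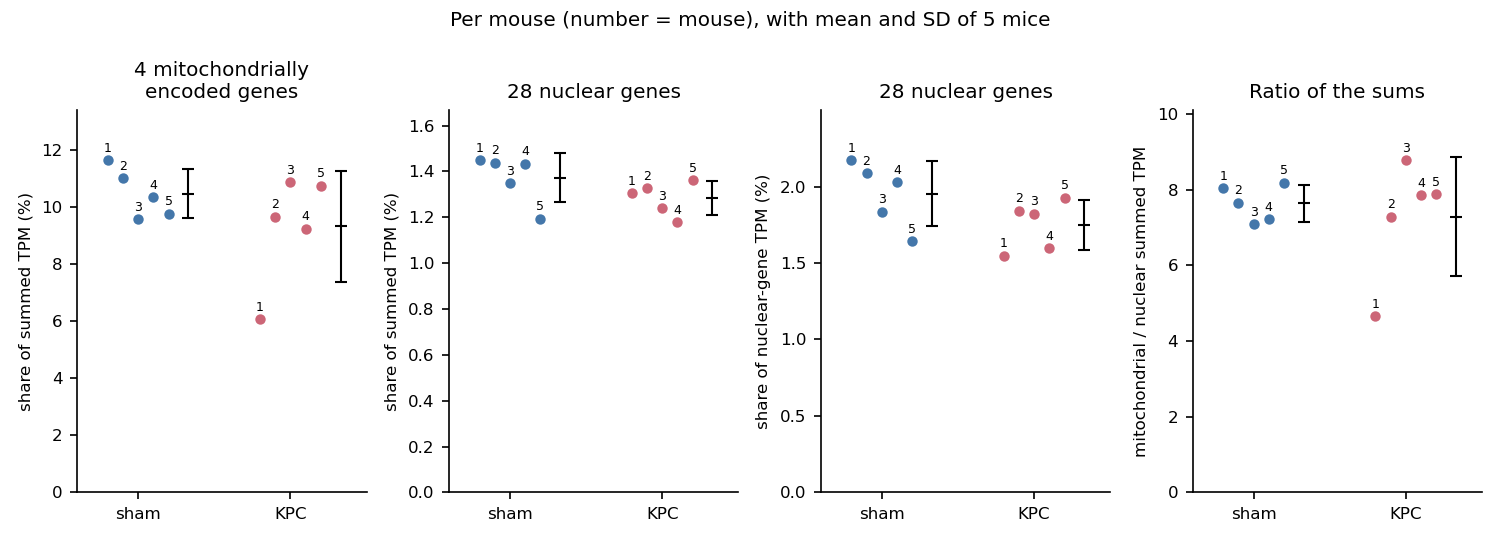
Share of all listed TPM taken by the 4 mitochondrially encoded genes (left) and the 28 nuclear genes (left of centre), share of nuclear-gene TPM taken by the 28 nuclear genes (right of centre) and ratio of mitochondrial to nuclear summed TPM (right), for each mouse, with the mean and SD of 5 mice beside the points. KPC mouse 1 is lowest by mitochondrial share, by share of nuclear-gene TPM and by ratio, at 6.07%, 1.55% and 4.65, and lies within the sham range of 1.19% to 1.45% by nuclear share of all listed TPM.

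Among the nuclear complex III genes, the differences of the larger core and redox subunits lay further below 0 than those of the small subunits, although none passed the adjusted test. Uqcrc1 and Uqcrc2 are the core proteins on the matrix side, Uqcrfs1 is the Rieske iron-sulphur protein and Cyc1 is cytochrome c1. Their log2 differences were -0.32, -0.24, -0.25 and -0.27, and those of the small subunits ran from -0.10 (Uqcr11 and Uqcrb) to 0.14 (Uqcrh). This division was drawn after the values were seen and is a description only.

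Uqcrc1 (GRCm38 chr9:108936633-108949623, plus strand) stood at 256, 235, 242, 231 and 198 TPM in sham mice 1 to 5. In KPC mice 1 to 5 it stood at 138, 192, 193, 199 and 193 TPM. Only sham mouse 5 reaches into the KPC range, where it lies just under KPC mouse 4. The means were 232 ± 21.6 and 183 ± 25.2 TPM, the log2 difference was -0.32 ± 0.13 (95% interval -0.59 to -0.04) and the limma p was 0.0281 before and 0.323 after adjustment. Without KPC mouse 1 the difference was -0.24.

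Cyc1 was at 203, 181, 187, 188 and 136 TPM in sham mice 1 to 5 and at 110, 159, 157, 144 and 155 TPM in KPC mice 1 to 5. Uqcrc2 was at 197, 184, 193, 177 and 144 TPM in sham mice and 123, 169, 161, 145 and 144 TPM in KPC mice. For both genes, in TPM, 4 sham mice lie above every KPC mouse and sham mouse 5 lies among the KPC mice. In normalized counts, the scale of the test, this holds for Cyc1 only. For Uqcrc2, sham mouse 4 then lies below KPC mice 2 and 3. Their limma adjusted p was 0.446 and 0.461. Uqcrfs1 ranged from 168 to 260 TPM in sham mice and from 138 to 201 TPM in KPC mice, with an adjusted p of 0.483.

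Of the small subunits, only Uqcrb showed such a separation in TPM, with 517 TPM or more in sham mice 1 to 4 and at most 511 TPM in KPC mice. In normalized counts KPC mouse 2 lies above sham mice 3 and 4 for Uqcrb. Uqcrh, the hinge protein that helps cytochrome c to bind cytochrome c1, was the only complex III gene with a difference above 0. Under quantile normalization Uqcr10 (0.01) joined it. Uqcrh was at 575, 593, 572, 593 and 523 TPM in sham mice 1 to 5 and 727, 618, 612, 525 and 604 TPM in KPC mice 1 to 5. The limma adjusted p of Uqcrh was 0.638. KPC mouse 1 had the highest Uqcrh and the lowest Uqcrc1 of all 10 mice. The ratio of Uqcrc1 to Uqcrh was 0.378 to 0.445 in sham mice, 0.190 in KPC mouse 1 and 0.311 to 0.378 in the other KPC mice.

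In KPC mouse 1 the deviation of a gene went with the length that the tables imply for it (the ratio of normalized count to TPM). Of the 28 nuclear genes, the 14 shorter ones lay a median of 0.10 above the sham mean on the log2 scale in this mouse and the 14 longer ones lay at -0.34. All nuclear genes tested showed 0.60 for the 593 that were equally short and -0.01 for the other 13597. In KPC mice 2 to 5 the shorter and longer members both lay at -0.11. The core subunits of complex III are all among the longer genes and the small ones among the shorter, so in KPC mouse 1 role and length cannot be told apart. Without KPC mouse 1 alone, the median differences were -0.19 for the 4 core and redox subunits and -0.10 for the 5 small ones. Omitting KPC mouse 1 and sham mouse 5 together was a choice made after seeing the data. It left median differences of -0.29 for the 4 core and redox subunits and -0.14 for the 5 small ones.

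**Figure D4:**
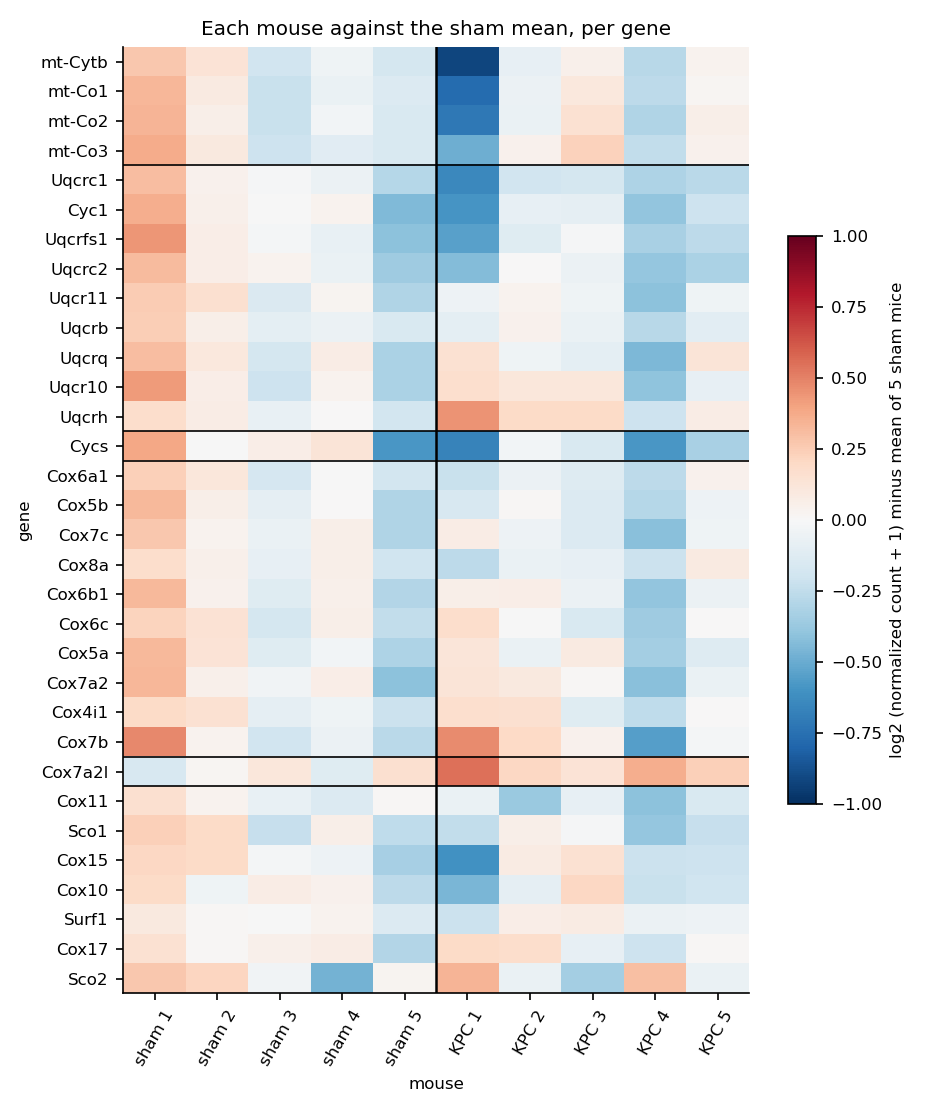
Each cell is 1 gene in 1 mouse, coloured by its log2(normalized count + 1) minus the mean of the 5 sham mice; the black vertical line parts sham from KPC mice and horizontal lines part the roles. Sham mouse 1 is above and sham mouse 5 and KPC mouse 4 are below the sham mean in most rows, and KPC mouse 1 is below it for the mitochondrial and core complex III genes and above it for several small subunits.

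Cytochrome c had the lowest difference of all 32 genes. Cycs (GRCm38 chr6:50562563-50566538, minus strand), which also starts the caspase cascade when released from mitochondria, stood at 73.9, 62.4, 70.0, 71.7 and 44.0 TPM in sham mice 1 to 5. In KPC mice 1 to 5 it stood at 37.2, 59.0, 53.6, 45.0 and 50.9 TPM. All KPC mice lie below sham mice 1 to 4, and sham mouse 5 lies below all KPC mice but the first. The log2 difference was -0.35 ± 0.18 (95% interval -0.74 to 0.04), with a limma adjusted p of 0.417.

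Leaving out sham mouse 5 alone brought 6 members to an unadjusted limma p under 0.05: Uqcrc1, Uqcrc2, Uqcrfs1, Cyc1 and Cycs, all lower in KPC mice, and Cox7a2l, higher. Of all genes, 13.8% did so in that fit (7.66% higher and 6.1% lower). The lowest adjusted p among all members was then 0.247. The same 6 stood out when KPC mouse 1 was left out as well, with a lowest adjusted p of 0.181, against 14.4% of all genes (8.06% higher and 6.39% lower). With KPC mouse 1 alone left out, 1 of 32 was under 0.05, Cox7a2l, against 12.4% of all genes (7.14% higher). On the TPM scale 5 of 32 were under 0.05, all lower (Uqcrc1, Uqcrc2, Cyc1, Cycs and Cox11), against 12.5% of all genes (6.45% lower). In TPM, sham mouse 1 was the highest sham mouse for 16 of the 32 genes. In normalized counts, the scale of the fit, it was the highest sham mouse for every member but Cox7a2l. Leaving out sham mouse 1 left 20 of 32 below 0 and a nuclear median of -0.04.

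Complex IV nuclear subunits lay close to the sham level. Of 10, 9 had a difference below 0, against 53.1% of all genes. An unadjusted limma p under 0.05 was found for 0, against 13.5% of all genes. The median difference was -0.07, with a range of -0.13 to 0.03. Cox6a1, a subunit that takes part in dimer contacts, was at 1415, 1441, 1267, 1394 and 1235 TPM in sham mice 1 to 5 and at 1078, 1226, 1161, 1194 and 1393 TPM in KPC mice 1 to 5. Cox5b, a zinc-binding subunit on the matrix side, was at 575, 530, 512, 536 and 433 TPM in sham mice and 429, 493, 440, 451 and 499 TPM in KPC mice. Cox8a was at 1356, 1381, 1345, 1459 and 1221 TPM in sham mice and 1051, 1223, 1200, 1234 and 1447 TPM in KPC mice.

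The 3 genes just given have the smallest p-values of the complex IV subunits and all overlap between groups, with KPC mouse 5 inside the sham range. Their log2 differences were -0.13, -0.12 and -0.11, with adjusted p-values from 0.628 to 0.674. Cox4i1, which starts the assembly of the complex with Cox5a and binds adenine nucleotides, was at 1519 ± 110 TPM in sham mice and 1478 ± 135 TPM in KPC mice. Its log2 difference of -0.01 had a 95% interval of -0.28 to 0.27, which limits a difference in either direction to that size. The other 6 nuclear subunits (Cox5a, Cox6b1, Cox6c, Cox7a2, Cox7b and Cox7c) differed by -0.11 to 0.03, and only Cox7b lay above 0. On the TPM scale Cox7b lay at -0.0044, and under quantile normalization Cox4i1 lay at 0.03, so the sign of both depends on the scaling.

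Complex IV also has subunits and subunit forms that are not members of the list, most of them used in particular tissues. Of 9 such genes, Ndufa4 and Ndufa4l2 among them, 7 were tested. Cox7b2 and Cox8c were listed at 0 in all mice. Cox6a2, the heart and skeletal muscle form of subunit 6a, was at 1.17, 0.691, 7.79, 17.4 and 47.3 TPM in sham mice 1 to 5 and at 1.89, 0.516, 0.817, 0.384 and 3.16 TPM in KPC mice 1 to 5. The 3 sham mice with the most Cox6a2 are also those with the most skeletal muscle transcripts, summed over 11 markers to 727, 1803 and 5158 TPM in sham mice 3, 4 and 5. In sham mice 1 and 2 the sum was 184 and 125 TPM, and in KPC mice it was 105 to 341 TPM. All 11 muscle markers were detected, and their part in the Cox6a2 difference of -2.32 ± 1.04 (limma adjusted p = 0.362) was not tested. Without sham mouse 5 no isoform had an unadjusted p under 0.05.

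Cox8b, the form of subunit 8 known from muscle and brown fat, was the highest of the tissue forms at 205 ± 95.2 TPM in sham mice and 187 ± 46.6 TPM in KPC mice. It was highest in sham mice 1 and 2 (276 and 329 TPM) and lowest in sham mouse 5 (107 TPM), so it did not follow the muscle markers. Cox7a1, another muscle and brown fat form, stood at 38.6 ± 14.5 and 27.1 ± 8.26 TPM, with an adjusted p of 0.599. Ucp1, the brown fat uncoupling protein, ranged from 0.034 to 29.3 TPM in sham mice and 0.624 to 13.4 TPM in KPC mice. Ndufa4l2, a hypoxia-responsive relative of the complex IV subunit Ndufa4, was at 12.9 ± 0.712 TPM in sham mice and 10.4 ± 3.15 TPM in KPC mice, with an adjusted p of 0.439.

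Cox7a2l had the highest difference of the 32 genes. It encodes a relative of subunit 7a that ties complex III to complex IV in supercomplexes, and C57BL/6 mice are known to carry a shortened form of the protein. Cox7a2l (GRCm38 chr17:83501918-83517330, minus strand) was at 129, 161, 185, 154 and 188 TPM in sham mice 1 to 5 and at 221, 177, 168, 222 and 193 TPM in KPC mice 1 to 5. Sham mice 3 and 5 overlap with KPC mice 2 and 3, and the 3 highest values are all from KPC mice. The means were 163 ± 24.1 and 196 ± 25.1 TPM and the log2 difference was 0.30 ± 0.10 (95% interval 0.08 to 0.52), 1.23-fold. Its limma p of 0.0132 became 0.276 after adjustment, the lowest adjusted p of the 32 genes.

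The direction of Cox7a2l held in all 22 alternative fits, from 0.21 to 0.34, and the difference was 0.24 without KPC mouse 1. In TPM, sham mouse 1 had the lowest Cox7a2l of all 10 mice and was the highest of 10 for 12 other nuclear members. The macrophage marker sums given above also lay higher in every KPC mouse than in every sham mouse, and their part in this difference was not tested. Cox7a2, the subunit whose place the related protein takes, stood at 317 ± 42.3 TPM in sham mice and 298 ± 28.8 TPM in KPC mice. The ratio of Cox7a2l to Cox7a2 was 0.364, 0.504, 0.569, 0.451 and 0.765 in sham mice 1 to 5 and 0.690, 0.552, 0.562, 0.887 and 0.637 in KPC mice 1 to 5. These ratios overlap.

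**Figure D5:**
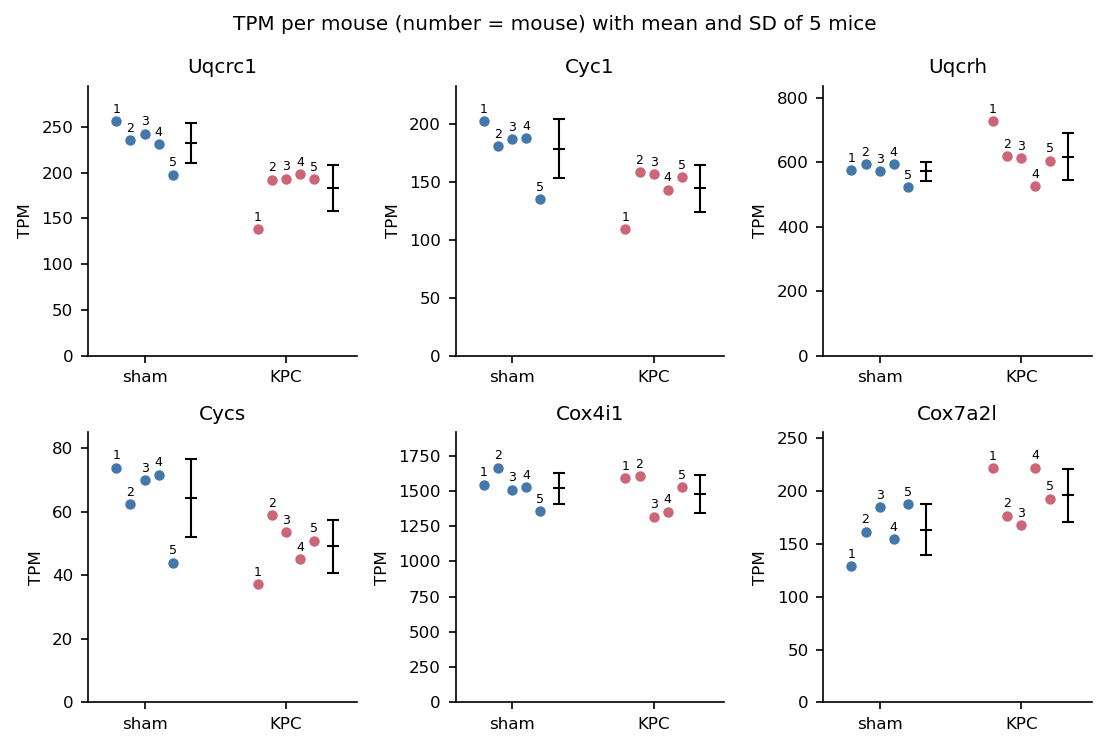
TPM of 6 genes in each mouse, on axes that start at 0, with points numbered by mouse and the mean and SD of 5 mice beside them. Uqcrc1, Cyc1 and Cycs lie lower in KPC mice than in sham mice 1 to 4, Uqcrh and Cox4i1 overlap widely, and Cox7a2l lies higher with overlap.

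Transcription of many respiratory genes is known to use the factors NRF1, GABP and YY1, so the promoters were searched for their core letters. RefSeq promoters on GRCm38.p6, 250 bases before to 50 after the start, were found for 21 of the 28 nuclear members. Listed genes were counted once, with a match in any of their promoters. The shares over all promoters count each of the 32851 promoters of 27025 genes, so the units differ. The NRF1 letters GCGCATGCG were present on either strand in 4 of 21 (19.0%: Uqcrc1, Cycs, Cox6a1 and Uqcr11), against 1.75% of all 32851 promoters. The GABP letters CCGGAAG were in 9 of 21 (42.9%) against 8.86%, and the YY1 letters AANATGGCG in 1 of 21 (Cox10) against 2.38%. Among complex I genes the same letters were in 2, 4 and 7 of 32 promoters, in that order, and among nuclear complex V genes in 3, 5 and 3 of 14 (21.4%, 35.7% and 21.4%).

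Stretches are shown for Cycs and Uqcrc1, the members with the lowest differences, for Cox7a2l, the one with the highest, and for Cox6a1, whose match has the same letters as that of Uqcrc1. Capitals mark NRF1 letters, which overlap on both strands in Uqcrc1 and Cox6a1. The stretches are from RefSeq, GRCm38.p6: Uqcrc1 chr9:108936668-108936697 (plus strand, after the start), Cycs chr6:50566570-50566719, Cox6a1 chr5:115349009-115349158 and Cox7a2l chr17:83514334-83514483 (minus strand, before the start). The RefSeq start of Cox7a2l lies inside the GENCODE gene model given above.
Uqcrc1: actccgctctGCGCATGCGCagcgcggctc
Cycs: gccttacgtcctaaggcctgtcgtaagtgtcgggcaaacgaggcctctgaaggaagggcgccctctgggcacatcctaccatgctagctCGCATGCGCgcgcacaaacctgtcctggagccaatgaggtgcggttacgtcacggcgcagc
Cox6a1: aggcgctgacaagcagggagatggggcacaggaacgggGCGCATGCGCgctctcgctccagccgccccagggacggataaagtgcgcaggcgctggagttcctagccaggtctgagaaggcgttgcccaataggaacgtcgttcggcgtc
Cox7a2l: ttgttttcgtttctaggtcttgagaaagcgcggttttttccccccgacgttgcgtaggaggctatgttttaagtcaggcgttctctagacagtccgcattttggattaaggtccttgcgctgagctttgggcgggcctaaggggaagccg

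The match in Cycs starts at position -61 from the RefSeq start and those in Uqcrc1 at 30 and 31. Cox7a2l holds none of the 3 motifs in its window. The 4 members with NRF1 letters had a median log2 difference of -0.22, with a range of -0.35 to -0.10. The 17 without had a median of -0.08 and a range of -0.25 to 0.30, so the ranges overlap. A match is a run of letters and not a measured binding site. The factors' own transcripts stood at 8.13 ± 2.34 and 8.06 ± 1.40 TPM for Nrf1, 14.4 ± 1.22 and 13.3 ± 1.97 TPM for Gabpa and 17.4 ± 1.48 and 17.9 ± 2.85 TPM for Yy1 in sham and KPC mice.

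Assembly genes of complex IV insert the haem and copper centres. Of the 7 members, 5 lay below 0, against 53.1% of all genes, with a median of -0.15. An unadjusted limma p under 0.05 was found for 0, against 13.5% of all genes. Cox11, which delivers copper to the mt-Co1 protein, was at 11.6, 11.8, 11.7, 11.0 and 12.2 TPM in sham mice 1 to 5 and at 10.3, 8.54, 10.4, 9.31 and 10.5 TPM in KPC mice 1 to 5. In TPM every KPC mouse lies below every sham mouse. In normalized counts, the scale of the test, the groups overlap, and the log2 difference was -0.22 ± 0.12 with an adjusted p of 0.444. On the TPM scale its unadjusted p was 0.024 and its adjusted p 0.357.

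Sco1, a copper chaperone for the mt-Co2 protein, was at 6.74, 7.18, 5.75, 6.91 and 5.56 TPM in sham mice 1 to 5 and at 5.03, 6.30, 5.98, 5.21 and 5.46 TPM in KPC mice 1 to 5. Cox10, which makes haem O on the way to the haem A of complex IV, was at 6.87, 6.45, 7.54, 7.22 and 5.86 TPM in sham mice and 4.60, 6.02, 7.33, 6.16 and 5.94 TPM in KPC mice. Both overlap between groups, with adjusted p-values of 0.634 and 0.650. Cox15, which completes haem A, Cox17, which passes on copper, Surf1 and Sco2 differed by -0.16, 0.02, -0.04 and 0.03.

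Further assembly factors of complexes III and IV, outside the 32, were also mostly below 0. Of 25 tested, 20 lay below 0 (median -0.12), against 53.1% of all genes. An unadjusted limma p under 0.05 was found for 2, both lower, against 13.5% of all genes (5.91% lower), and 0 passed the adjusted threshold. Coa7 was at 17.4, 20.1, 19.9, 16.2 and 20.7 TPM in sham mice 1 to 5 and at 11.4, 18.0, 12.8, 10.8 and 12.1 TPM in KPC mice 1 to 5. Only KPC mouse 2 reaches the sham range, and the difference was -0.52 ± 0.17 with an adjusted p of 0.252. Taco1, a translational activator of mt-Co1, was at 12.9, 15.5, 14.4, 14.5 and 14.5 TPM in sham mice and 9.42, 12.8, 11.8, 12.5 and 12.1 TPM in KPC mice. Every KPC mouse lies below every sham mouse for Taco1, as for 1.28% of all genes, and its adjusted p was 0.322. Uqcc2, a complex III assembly factor and the highest of these genes, was at 154 ± 9.38 TPM in sham mice and 162 ± 59.0 TPM in KPC mice, where KPC mouse 1 alone had 262 TPM.

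The other chain complexes also had medians below 0, and the difference between complexes was not tested. Median log2 differences were -0.08 for 36 nuclear complex I genes (28 below 0), -0.21 for 4 complex II genes (4 below 0) and -0.11 for 14 nuclear complex V genes (10 below 0). Single genes ran from -1.08 to 0.18 in complex I, from -0.33 to -0.02 in complex II and from -0.34 to 0.11 in complex V. The 32 members ran from -0.35 to 0.30. Of all genes, 53.1% lay below 0. None of these chain genes had an unadjusted limma p under 0.05, against 13.5% of all genes. The largest complex II subunit, Sdha, stood at 394 ± 45.8 TPM in sham mice and 318 ± 88.0 TPM in KPC mice, with KPC mouse 1 lowest at 165 TPM. Atp5b, the catalytic beta subunit of ATP synthase, stood at 1941 ± 203 and 1515 ± 281 TPM, with an adjusted p of 0.426. Among 15 genes of mitochondrial gene expression and its nuclear regulators, the mitochondrial transcription factor gene Tfb2m had the smallest p: 23.4 ± 1.84 TPM in sham mice and 19.0 ± 2.97 TPM in KPC mice, a difference of -0.28 ± 0.10 with an adjusted p of 0.286. Ppargc1a, a coactivator of respiratory genes, was at 1.19 ± 0.706 and 1.22 ± 0.955 TPM.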

How the data were processed

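Visceral fat of 10 mice was analysed, 5 sham and 5 KPC, grouped and numbered by the labels. The authors deposited 2 tables: gene counts normalized by them, a non-negative signal, and TPM. The authors used mm10, Salmon, DESeq and DESeq2, per the submitters' processing notes, and no version, annotation or strand setting is stated. Salmon estimates how reads fall among close copies, so genes such as Cox6c and Ndufa4 are uncertain, and antisense partners may share reads. Whole reads could not be recovered: at the best step per mouse, 31.1% to 47.3% of the values not above 30 lay within 0.05 of an integer. No count model was run. Library totals were 20941200 to 24449900 normalized counts. The deposited tables differ by 1 factor per mouse, from -0.11 to 0.15 on the log2 scale.

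Differences were fitted with limma 3.58.1 (R 4.3.3, variance trend) on log2(normalized count + 1) for 14203 genes with a mean of at least 10, with Benjamini-Hochberg adjustment over all of them and a threshold of 0.05. Fold changes are on that scale. The fit was tested on simulated data. Per-mouse levels are TPM. P-values measure the spread between mice labelled as separate samples. Values per mouse are given for the mitochondrially encoded genes, Cycs, Cox7a2l and the 3 genes with the smallest p of each role; of other lists, up to 4 genes with the smallest p and the highest gene. Uqcrh, Cox4i1, Ucp1, Ppargc1a, Nrf1, Yy1 and the markers were named after their values were seen. Members and lists were chosen with earlier results of these data known. Coordinates are from GENCODE vM21 and promoters from RefSeq, both on GRCm38. Alternatives covered scaling, pseudocount, filter, model and leaving out mice.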

Additional observations from a re-analysis of the deposited data

Results flagged for a closer look

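On log2(normalized count + 1), 64 combinations of member and group were tested for a mouse far from the others. Of these, 2 stood out, a smaller share than the about 1 in 20 that chance gives. Both were the lowest of the KPC group in KPC mouse 4. In TPM that mouse was also the lowest KPC mouse for 10 of the 28 nuclear members, and in normalized counts for more of them. Uqcr11, a small complex III subunit, lay at -0.41 against the sham mean in KPC mouse 4 on the scale tested. The nearest other KPC mouse lay at -0.05, and in TPM the 2 mice were at 741 and 837. Cox6b1, a small complex IV subunit, lay at -0.39 in KPC mouse 4 and the nearest other KPC mouse at -0.06, with 562 and 627 TPM. Both differences between groups have their adjusted p far above the threshold with this mouse in the fit.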

How the results depend on the processing

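The count of members past the adjusted threshold was 0 in all 22 alternatives, and the lowest adjusted p of any member was 0.151, with array weights. Of 330 values of 15 named members, 325 kept their direction. The exceptions were mt-Co1 with quantile normalization (0.13) and mt-Co3 with quantile normalization (0.085), with array weights (0.033), without sham mouse 1 (0.0088) and without KPC mouse 1 (0.016). Leaving out 1 mouse in turn moved mt-Co3 between -0.16 and 0.016. The count over all genes, 8 in the fit as reported, was 2 on TPM, 4 on TPM rescaled to nuclear genes, 3 without a trend, 200 with array weights and 55 without KPC mouse 1 and sham mouse 5. When 1 mouse was left out it was 2 to 70: 2 without sham mouse 4 or KPC mouse 4, 3 to 5 without any other sham mouse or KPC mouse 5, 8 without KPC mouse 3, 14 without KPC mouse 2, and 70 once KPC mouse 1 was omitted. The causes were not tested. Same-numbered mice correlated at 0.01 to 0.19, with 2 of 5 numbers best matched to themselves, so the numbers were not taken as pairs. With a replicate block, 4 genes passed, and 4 with the title number as a block. In the title-number fit 25 of 32 members lay below 0. Uqcrc1 lay at -0.30 there, with a limma p of 0.0585 before adjustment, Cycs at -0.27 and Cyc1 at -0.22. Only Cox7a2l (0.28) had an unadjusted limma p under 0.05 among the members in that fit, at 0.0321.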
